A study of Rattus norvegicus with 24 samples.

Results

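Genes of fatty acid oxidation and the energy metabolism that follows it were followed in rat mammary glands across estradiol doses in both sexes. The members are 32 named genes, from the carnitine shuttle to the citrate cycle, and every probe set annotated to a single one of them was used. This gave 45 probe sets for 31 genes, of 31042 probe sets and 14217 genes tested in all. The thiolase gene Acaa1a was measured only by a probe set shared with Acaa1b, and 2 further shared probe sets (Acot2 with Acot1, and Eci3 with Eci2) were left out with it.

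Mitochondrial β-oxidation shortens fatty acids inside the mitochondrion, after the carnitine shuttle has carried them across its membranes. Each turn of the spiral removes an acetyl unit through dehydrogenation, hydration, a second dehydrogenation and thiolysis. The acetyl-CoA enters the citrate cycle, while the electrons of the first dehydrogenation reach the respiratory chain through the electron transfer flavoprotein. The prepubertal mammary gland is a small epithelial tree in a pad of white fat, so adipocytes contribute to its RNA, and the abdominal pad lies close to muscle.

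The rats were Sprague-Dawley males and females that carried subcutaneous osmotic pumps between postnatal days 21 and 33. The pumps of the treated groups delivered 17β-estradiol, the main ovarian estrogen, at 10, 1 or 0.1 µg/kg/day, and those of the 0 groups delivered none. Sex and dose made 8 groups of 3 Affymetrix arrays, 24 in all, hybridised with total RNA of whole abdominal gland pairs taken on day 33. The labels do not say whether an array stands for 1 animal, so a p-value here reflects array-to-array spread, which may be technical. The question was what added estradiol does to gene expression in the immature gland of either sex.

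Each value below is a log value relative to a centre of its probe set that appears to have been set within each sex, taken here as log2 because the base is not given. Every probe set had 3 to 9 of the 12 arrays of a sex above 0, so 0 is not the exact middle of these arrays. Differences between doses are kept by this centring. Levels, differences in level between the sexes and comparisons of level between genes are not, and the tissue label could not be checked against the level of any marker. Replicates are numbered 1 to 12 within a sex as in the titles. Tissue markers differed widely between single arrays. The mean of 33 skeletal muscle genes ran between -2.91 in female replicate 1 at 0 and 2.12 in female replicate 4 at 0.1. The mean of 20 hepatocyte genes was above 1 in 4 arrays, of which female replicate 1 and male replicates 2 and 3 belong to the groups at 0 and male replicate 7 to the males at 1. A probe set passed when its adjusted p in limma, a linear model fitted to all probe sets, was under 0.05 after Benjamini-Hochberg adjustment over all 31042.

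Promoter sequences of the members were set beside these values. RefSeq (build GRCr8) gave the 250 bases before the start of 27 of the 32 genes, and the table has no entry for Idh3a, Acaa2, Decr1, Acadl and Cpt1b. The arrays themselves carry no build. The table's 27457 promoters were searched on both strands. Of the 3 sequences below, 2 hold the nuclear respiratory factor site (GCGCA and GCGC with any 1 base between them). This site lies in promoters of many mitochondrial genes. The 2 are those of Etfdh and Sdha, the genes with the site that fell in males at the highest dose. Etfb and Ppara also hold the site but did not pass there, and their promoters are not shown. The third sequence lies between a pair of members that share 1 enzyme. Capitals mark the match. Etfdh, chr2:167060759-167061008 on the minus strand, has 1 such site, 168 bases upstream. Sdha, chr1:30764303-30764552 on the plus strand, has 2 sites, 89 and 46 bases upstream. Hadhb and Hadha lie head to head with 243 bases between them, chr6:31907558-31907800, printed on the plus strand with the GC box GGGCGG in capitals, here as its complement.
Etfdh: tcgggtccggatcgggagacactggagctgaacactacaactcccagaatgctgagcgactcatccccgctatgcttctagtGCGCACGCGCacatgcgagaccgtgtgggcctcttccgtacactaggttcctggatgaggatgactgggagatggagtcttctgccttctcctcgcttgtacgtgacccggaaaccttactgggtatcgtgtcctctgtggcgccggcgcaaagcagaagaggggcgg
Sdha: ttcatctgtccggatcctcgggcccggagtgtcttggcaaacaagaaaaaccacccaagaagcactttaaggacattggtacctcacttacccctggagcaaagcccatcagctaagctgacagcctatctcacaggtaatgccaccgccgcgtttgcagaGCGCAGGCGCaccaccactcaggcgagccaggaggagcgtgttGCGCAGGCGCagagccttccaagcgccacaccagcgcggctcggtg
Hadhb to Hadha: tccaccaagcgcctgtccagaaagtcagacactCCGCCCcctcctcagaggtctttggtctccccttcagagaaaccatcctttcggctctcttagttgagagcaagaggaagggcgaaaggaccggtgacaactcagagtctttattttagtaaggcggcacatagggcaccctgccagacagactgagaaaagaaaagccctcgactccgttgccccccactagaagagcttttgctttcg
The respiratory factor site was found in 4 of the 27 member promoters (Etfb, Etfdh, Ppara and Sdha, 14.8%), against 4.17% of all promoters. Of the 16 members with a promoter that fell in males at the highest dose, 2 held it. Whether the site goes with the falls was not tested. The GC box was in 19 of 27 (70.4%), against 32.4%, and the letters CCAAT in 9 of 27 (33.3%), against 34.3%. The nuclear receptor core motif AGGTCA was in 4 of 27 (14.8%), against 13.7%. The estrogen-related receptor element TNAAGGTCA, which contains AGGTCA, the estrogen response element (GGTCA and TGACC with any 3 bases between them) and the repeat bound by PPAR receptors (2 copies of AGGNCA with any 1 base between them) were in 0 of 27. In all promoters they were found in 1.0%, 0.0219% and 0.353%. A match is only a match of letters, and none of these shares was tested.

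In males at 10 µg/kg/day, 18 of the 31 genes fell against males at 0 by at least 1 probe set, and none rose. With the probe sets of each gene averaged, Hadha, Hadh and Acot2 did not pass. The 18 genes span every step of the mitochondrial spiral, the electron transfer flavoprotein, ketone body use and the citrate cycle. By probe set, 21 of 45 fell, 0 rose and 24 did not pass, while 9.64% of all probe sets fell and 7.81% rose in this comparison. The median difference over the 45 was -0.46, against -0.01 over all probe sets tested, and 38 of 45 differences were below 0. The range was -0.88 to 0.50. In 29 probe sets every male at 10 lay below every male at 0, and in 0 the reverse held, against 18.9% and 18.2% of all probe sets. The falls are between 1.33-fold and 1.84-fold if the values are log2. With bulk RNA, fewer cells of a type and less RNA per cell cannot be told apart.

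Markers of white adipocytes moved with this result. Of their 27 probe sets 25 fell and 0 rose in males at 10. Their mean over 19 genes was between -0.87 and -0.68 in the 3 males at 10, against 0.39 to 0.56 in the 3 males at 0. Beta-actin, whose 3′ minus 5′ control difference follows RNA integrity, gave -0.02 to 0.16 in males at 10, against -0.56 to -0.06 in males at 0. The same difference for the control Gapdh was -0.06 to 0.01 in males at 10, against -0.14 to -0.03 in males at 0, which overlap. The hepatocyte mean was between -0.27 and -0.17 in males at 10, against -0.09 to 2.33 in males at 0. The part of each in the result was not tested beyond the fits given next.

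With the skeletal muscle mean as a covariate the count stayed at 21 and all 21 calls were kept. In that fit 5523 of all probe sets passed (17.8%), against 5419 without a covariate. With the hepatocyte mean 12 of the 21 were kept and all 21 kept their direction. The member median was -0.40, against -0.46 without it, and the median standard error (SE) 0.165, against 0.139. Of all probe sets 3396 (10.9%) passed in that fit. With the white adipocyte mean 0 were kept, and the median difference over the members was -0.07. In that fit the median SE of the members was 0.34, and 0 of all 31042 probe sets passed. Dose 10 in males and the adipocyte mean can therefore hardly be told apart in these arrays. With the beta-actin difference as a covariate only Decr1 kept its call, the median was -0.15, and 738 probe sets passed in all against 5419.

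**Figure D1:**
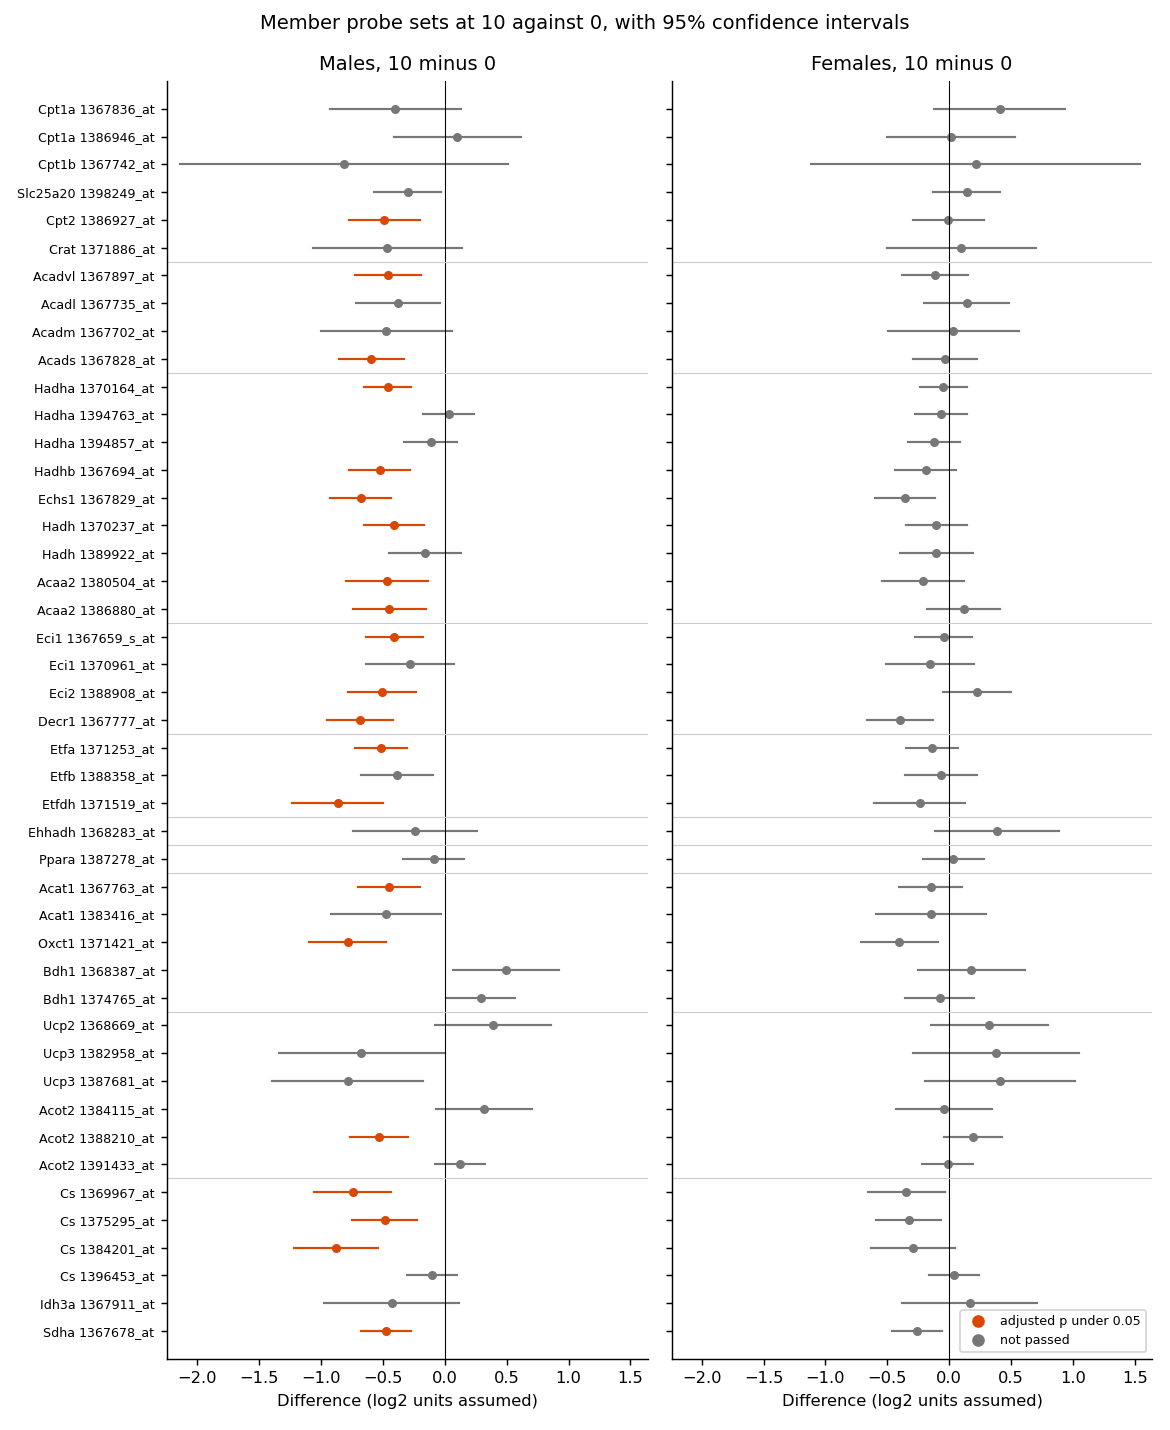
Differences of the 45 member probe sets at 10 against 0 in males (left) and females (right), in log2 units assumed. Points are limma estimates and bars their 95% confidence intervals, lines divide the roles in the pathway, and orange marks an adjusted p under 0.05. In males 21 points are orange and all lie below 0, while in females none is.

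The carnitine shuttle held 1 of these falls among 6 probe sets. Cpt2, the transferase of the inner membrane that returns the fatty acid to coenzyme A, fell by 0.49 on the log2 scale (SE 0.137, adjusted p = 0.0191 in limma). It lost this call when any of 3 arrays (male replicates 1, 11 or 12) was left out. The carrier Slc25a20, which exchanges acylcarnitine for carnitine, did not pass (-0.30, adjusted p = 0.114), although its values in males at 10 lay below those at 0. Carnitine acetyltransferase, Crat, gave -0.46 (adjusted p = 0.280).

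Cpt1a encodes the liver-type transferase of the outer membrane, the step at which entry into the pathway is set. Its probe set 1367836_at gave -0.18, -0.16 and -0.58 in males at 10, against 0.20, -0.04 and 0.12 in males at 0. The groups did not overlap, but the difference of -0.40 did not pass (adjusted p = 0.294). Its other probe set differed by 0.10 (adjusted p = 0.817). Over the doses 0, 0.1, 1 and 10 the male means of 1367836_at were 0.09, 0.37, 0.35 and -0.31, so the middle doses were not between the outer ones. The females gave -0.01, 0.35 and -0.36 at 10, against -0.01, -0.56 and -0.67 at 0, which overlap.

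Cpt1b encodes the muscle-type form of the same enzyme. It was at 0.46, -1.09 and -1.28 in males at 10, against 0.74, 0.07 and -0.28 in males at 0. The high array at 10 was replicate 10, which also had the highest muscle mean of the 3 (1.19, against -0.99 and -1.76). The difference of -0.81 had an interval of -2.14 to 0.51 and did not pass (adjusted p = 0.405). In females Cpt1b was at 0.73, -0.65 and 0.54 at 10, against -0.35, 0.49 and -0.16 at 0, again with overlap.

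Of the 4 acyl-CoA dehydrogenases, which start each turn and differ in the chain length they accept, 2 fell in males at 10. Acads, for short chains, was at -0.19, -0.42 and -0.33 in males at 10, against 0.31, 0.27 and 0.26 in males at 0. The groups were well apart, and the difference was -0.59 (SE 0.124, adjusted p = 0.00309). Acadvl, for very long chains, gave -0.46 (adjusted p = 0.0171). Acadl for long chains gave -0.38 (adjusted p = 0.119) and Acadm for medium chains -0.47 (adjusted p = 0.205), and neither passed.

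The middle and last steps of the spiral held 6 falls among 9 probe sets, and all 5 genes had at least 1. Echs1, the short-chain enoyl-CoA hydratase, had the smallest adjusted p of the members. It was at -0.46, -0.46 and -0.36 in males at 10, against 0.30, 0.22 and 0.23 in males at 0. All males at 10 lay below all other male arrays, and the difference was -0.68 (SE 0.117, adjusted p = 0.000664), which is 1.60-fold if log2. Over the doses 0, 0.1, 1 and 10 its male means were 0.25, -0.02, -0.21 and -0.43.

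Hadha and Hadhb encode the α and β subunits of the mitochondrial trifunctional protein, which carries out the last 3 reactions on long chains, and face each other across the 243 bases printed above. Hadha, by probe set 1370164_at, was at -0.30, -0.31 and -0.38 in males at 10, against 0.20, 0.11 and 0.07 in males at 0. These groups did not overlap, and the difference was -0.46 (SE 0.091, adjusted p = 0.00203). Its 2 other probe sets gave 0.03 and -0.11 and did not pass, so the probe sets of Hadha disagree. Hadhb fell by 0.53 on the log2 scale (adjusted p = 0.00476).

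Hadh, the dehydrogenase for shorter 3-hydroxyacyl-CoAs, fell by one probe set (-0.41, adjusted p = 0.0214) and not by the other (-0.16, adjusted p = 0.466). Acaa2, the mitochondrial thiolase, fell by both of its probe sets (-0.45 and -0.47, adjusted p = 0.0363 and 0.0466). With 1 array left out, 1386880_at kept its call in 18 of 24 fits and 1380504_at in 9. The means of 1386880_at over the male doses 0, 0.1, 1 and 10 were 0.01, 0.01, 0.16 and -0.44. Those of 1380504_at were 0.0032, 0.27, 0.11 and -0.47, so both were lowest at 10. At 10 against 1 probe set 1386880_at had the smallest adjusted p of the members, with a difference of -0.60 (adjusted p = 0.0788).

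Unsaturated fatty acids need auxiliary enzymes that move or remove double bonds, and all 3 such genes fell, by 3 of 4 probe sets. Decr1, the 2,4-dienoyl-CoA reductase, was at -0.44 in each of the 3 males at 10, against 0.23, 0.33 and 0.18 in males at 0. The difference was -0.68 (SE 0.127, adjusted p = 0.00119). The isomerases Eci1 and Eci2 fell by 0.41 and 0.51 on the log2 scale (adjusted p = 0.0145 and 0.0125). The second Eci1 probe set gave -0.28 and did not pass.

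Electrons of the first step pass through the electron transfer flavoprotein, made by Etfa and Etfb, to its oxidoreductase Etfdh. Etfa was at -0.35, -0.37 and -0.30 in males at 10, against 0.19, 0.24 and 0.09 in males at 0. The groups did not overlap, and Etfa differed by -0.51 (SE 0.100, adjusted p = 0.00185). Etfb gave -0.39 and did not pass (adjusted p = 0.0619).

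Etfdh, one of the genes with the respiratory factor site shown above, was at -0.41, -0.75 and -0.64 in males at 10, against 0.44, 0.12 and 0.23 in males at 0. The lowest control lay above 0 and the highest array at 10 well below it. The difference of -0.86 (SE 0.176, adjusted p = 0.00251) is 1.82-fold if log2. The male means over the doses 0, 0.1, 1 and 10 were 0.26, 0.01, -0.09 and -0.60.

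Peroxisomes have an oxidation pathway of their own for very long chains. Its bifunctional enzyme Ehhadh gave -0.24 (adjusted p = 0.532) in males at 10. The probe set shared by Acaa1b and Acaa1a, the peroxisomal thiolases, was at -0.31, -0.15 and -0.10 in males at 10, against 0.10, 0.23 and 0.14 in males at 0, and cannot be given to either gene. Ppara, the nuclear receptor that drives many of these genes in liver, was at 0.02, 0.01 and -0.12 in males at 10, against 0.15, 0.08 and -0.06 in males at 0. Those groups overlap, and Ppara differed by -0.09 (interval -0.34 to 0.16, adjusted p = 0.650).

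Ketone bodies are oxidised through Bdh1, Oxct1 and Acat1. Oxct1, the transferase that activates acetoacetate, was at -0.23, -0.62 and -0.49 in males at 10, against 0.50, 0.29 and 0.22 in males at 0. The groups did not overlap, and the difference was -0.78 (SE 0.148, adjusted p = 0.00141). Acat1, which splits acetoacetyl-CoA, fell by probe set 1367763_at (-0.45, adjusted p = 0.0142), and its other probe set gave -0.47 (adjusted p = 0.129). Both probe sets of Bdh1, the 3-hydroxybutyrate dehydrogenase, had positive differences of 0.50 and 0.29 that did not pass (adjusted p = 0.104 and 0.138).

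Uncoupling proteins and the mitochondrial thioesterase Acot2, which frees fatty acids from coenzyme A, gave a mixed picture, with 1 fall among 6 probe sets. Acot2 was at -0.47, -0.18 and -0.40 by probe set 1388210_at in males at 10, against 0.27, 0.13 and 0.14 in males at 0. These do not overlap, and the difference was -0.53 (SE 0.112, adjusted p = 0.00323). Its other probe sets gave 0.32 and 0.12 and did not pass. Acot2 has a close copy in Acot1, so its single probe sets are uncertain.

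Ucp2 had a difference of 0.39 (adjusted p = 0.239). Ucp3, found mainly in skeletal muscle, had differences of -0.67 and -0.78 (adjusted p = 0.154 and 0.0700), and none of these passed. The values of Ucp3 in males at 10 lay below those at 0 in both probe sets.

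In the citrate cycle 4 of 6 member probe sets fell. Cs, the citrate synthase that takes up acetyl-CoA, was at -0.43, -0.49 and -0.64 by probe set 1384201_at in males at 10, against 0.35, 0.33 and 0.40 in males at 0. The difference of -0.88 (SE 0.160, adjusted p = 0.00107) was the lowest of all members and is 1.84-fold if log2. Probe sets 1369967_at and 1375295_at of Cs fell by 0.74 and 0.49 on the log2 scale (adjusted p = 0.00205 and 0.0126), while the fourth gave -0.11 (adjusted p = 0.486). Over the doses 0, 0.1, 1 and 10 the male means of 1384201_at were 0.36, 0.15, -0.09 and -0.52.

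Sdha, the flavoprotein subunit of succinate dehydrogenase and the other gene with respiratory factor sites shown above, was at -0.30, -0.40 and -0.32 in males at 10, against 0.19, 0.14 and 0.07 in males at 0. The groups lay on opposite sides of 0, with a difference of -0.48 (SE 0.096, adjusted p = 0.00239). Idh3a, a subunit of isocitrate dehydrogenase, gave -0.43 and did not pass (adjusted p = 0.267).

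Of the 21 falls, 12 (11 genes) held whichever of the 24 arrays was left out. These genes are Acads, Hadha, Hadhb, Echs1, Decr1, Etfa, Etfdh, Oxct1, Acot2, Cs and Sdha. Of these, Hadha and Acot2 did not pass with the probe sets of each gene averaged. Leaving out male replicate 1, a control, left 13 falls. Leaving out a male at 10 left 14 (replicate 12) or 15 (replicate 11). Without the arrays whose hepatocyte mean was above 1, which leaves replicate 1 as the only male at 0, 13 fell and 1 rose, and 12 of the 21 calls were kept. That single male is taken in this fit to vary like the other groups. Among the male arrays it also has the highest muscle mean (1.41) and the lowest beta-actin 3′ minus 5′ difference (-0.56).

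**Figure D2:**
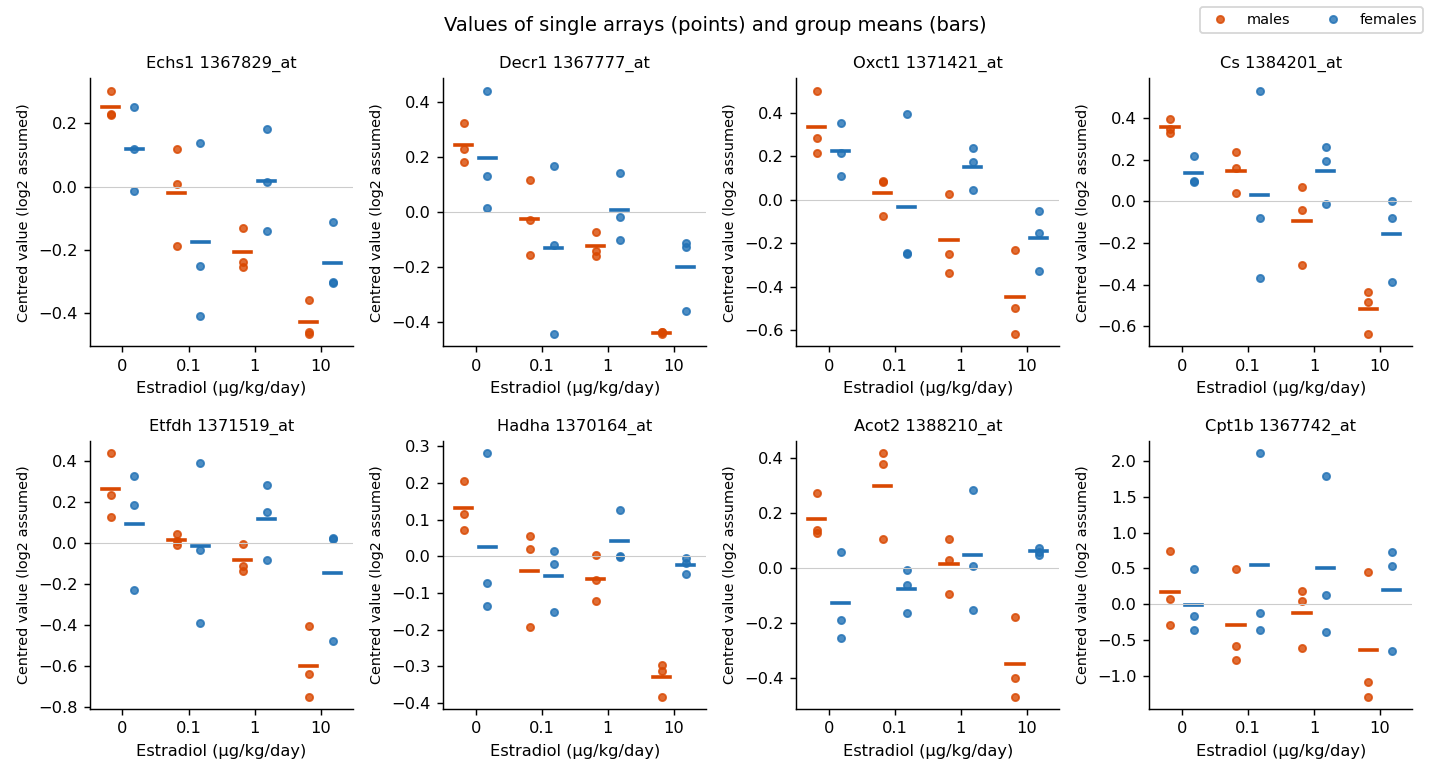
Centred values (log2 assumed) of 8 member probe sets in single arrays, males left and females right at each dose in µg/kg/day, with group means as bars. Males at 10 lie below males at 0 in all panels but Cpt1b, where 1 male at 10 reaches 0.46.

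Few or no members passed at the lower doses in males. At 1 against 0, 1 of 45 fell and 0 rose (2.1% of all probe sets fell and 1.53% rose). This was Echs1, at -0.25, -0.13 and -0.24 at 1, against 0.30, 0.22 and 0.23 at 0. The groups did not overlap, and the difference was -0.46 (SE 0.117, adjusted p = 0.0367). This call was lost when any of the 6 arrays of the 2 groups was left out, and with the hepatocyte mean as a covariate. Next came Oxct1 (-0.52, adjusted p = 0.0563) and Sdha (-0.28, adjusted p = 0.109). The member median was -0.22, and 21 probe sets were below all controls (14.3% of all probe sets).

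At 0.1 against 0 in males, 0 of 45 passed in limma (0% of all probe sets), 7 had an unadjusted p under 0.05 (11.9% of all), and the median was -0.19. The values were below all controls in 19 probe sets (10.8% of all). At 10 against 1 in males 0 of 45 passed (0.387% of all), 16 had an unadjusted p under 0.05 (9.41% of all), and the median was -0.22. Here 22 probe sets lay below every array at 1 (9.72% of all). The comparisons within a sex share the arrays at 0 or at 10. With 3 tissue means as covariates the male medians were 0.09 at 0.1 and 0.07 at 1 against 0.

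In females no member passed at any dose. Against females at 0, the count in limma was 0 of 45 at 0.1 and at 1 (0% of all probe sets at either dose), and 0 at 10 (1.86% of all). At an unadjusted p under 0.05 the counts were 4, 0 and 6 at 0.1, 1 and 10 (9.93%, 2.73% and 13% of all). At 10 against 1 it was 0 (0.267% of all), with 4 at an unadjusted p under 0.05 (10.1% of all). The member medians against 0 were -0.06, -0.01 and -0.05 at 0.1, 1 and 10.

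The 6 female probe sets at 10 with a low unadjusted p belong to Decr1, Echs1, Oxct1, Sdha and Cs, and all 6 differences are negative. As a share of the 45 members they are near the 13% of all probe sets, so they are not read as a response of the members. How many of all probe sets were lower or without overlap in females is not given here. Decr1 was at -0.11, -0.13 and -0.36 in females at 10, against 0.44, 0.02 and 0.13 in females at 0. The groups did not overlap, and the difference of -0.40 had an interval of -0.66 to -0.13 (adjusted p = 0.128). Echs1 was at -0.11, -0.31 and -0.30 in females at 10, against 0.25, 0.12 and -0.02 at 0, with a difference of -0.36 (adjusted p = 0.137). Oxct1 differed by -0.40 (adjusted p = 0.206) and Sdha by -0.26 (adjusted p = 0.212).

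White adipocyte markers fell in females at 10 as well, by 18 of 27 probe sets. Their mean was between -0.51 and -0.32 in females at 10, against 0.29 to 0.58 in females at 0. With the adipocyte mean as a covariate the member median in females at 10 was 0.17, against -0.05 without it, and 0 of all 31042 probe sets passed. With the skeletal muscle mean as a covariate 2 of 45 fell, where 3.89% of all probe sets passed in that fit.

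That members passed in males and not in females does not show a difference between the sexes, which was tested as the male difference from 0 minus the female one. At 10 this interaction passed for 1 of 45 probe sets, lower in males (0.754% of all probe sets were lower and 0.525% higher). It was Acot2 by 1388210_at, at -0.72 (SE 0.158, adjusted p = 0.0302), a call lost when any of 8 of the 12 arrays at 10 and 0 was left out (adjusted p up to 0.101). In females it was at 0.06, 0.07 and 0.05 at 10, against 0.06, -0.19 and -0.25 at 0, which overlap, with a difference of 0.19. The other Acot2 probe sets had interactions of 0.36 and 0.14 (adjusted p = 0.468 and 0.609).

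Eci2 came next among the members, with an interaction of -0.73 (adjusted p = 0.0592), followed by Hadha 1370164_at at -0.41 (adjusted p = 0.107) and Acads at -0.56 (adjusted p = 0.108). For Echs1 it was -0.32, with an interval of -0.67 to 0.03, and for Decr1 -0.29, with an interval of -0.66 to 0.09. These intervals include 0 and reach nearly the size of the male difference. The member median of the interaction was -0.34, and 15 had an unadjusted p under 0.05 (19% of all). At 0.1 and 1 the interaction passed for 0 members in limma (0% and 0.0483% of all), with 2 and 4 at an unadjusted p under 0.05 (7.3% and 9.85% of all).

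**Figure D3:**
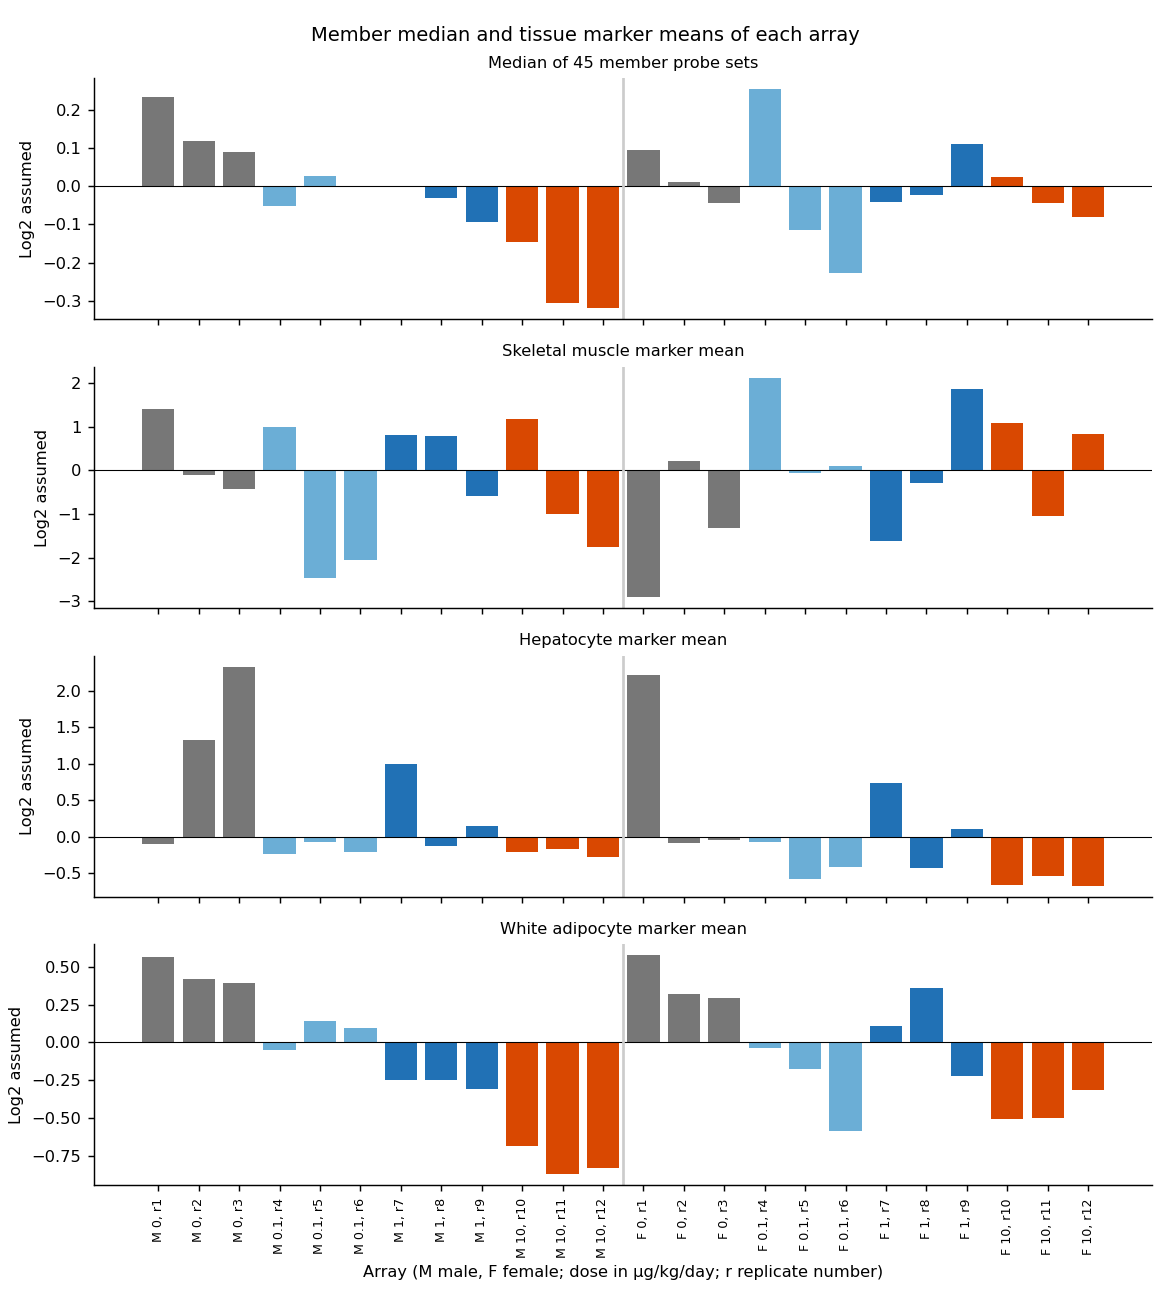
For each array, the median of the 45 member probe sets and the means of skeletal muscle, hepatocyte and white adipocyte markers, all in log2 units assumed, with males left of females and colours by dose. The 3 males at 10 have the lowest member medians (-0.32 to -0.15) and adipocyte means of the males, and the highest member median, 0.25, is that of the female array with the highest muscle mean.

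Several members followed the muscle content of single arrays. In a fit with the dose groups and the muscle, hepatocyte and adipocyte means together, 16 of 45 probe sets rose with the muscle mean and 3 fell with it (8.31% of all probe sets rose and 13.5% fell). The slope was steepest for Cpt1b, at 0.61 per unit of the muscle mean (SE 0.052, adjusted p = 2.46e-07). Female replicate 4 at 0.1, with the highest muscle mean, had a Cpt1b value of 2.10, and female replicate 9 at 1, with a muscle mean of 1.88, had 1.78. The other Cpt1b values all lay at 0.74 or below.

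Crat followed with a slope of 0.26 (adjusted p = 1.07e-05), then Ucp3 with 0.25 and 0.16, Idh3a with 0.22 and Acadm with 0.21. Smaller positive slopes, between 0.06 and 0.15, were found for Acat1 (1383416_at), Etfdh, Acadl, Oxct1, Etfb, Cs (2 probe sets), Cpt2, Acadvl and Hadhb. The negative slopes were those of Ucp2 (-0.17) and both Bdh1 probe sets (-0.12 and -0.08). Echs1, Decr1, Hadha, Etfa, Acads and Sdha had no slope on muscle that passed. Of the 21 probe sets that fell in males at 10, 7 had a muscle slope, which is 33.3% of the falls and 36.8% of the 19 slopes. The number of muscle slopes was 9 without female replicate 4 at 0.1, 12 without female replicate 9 at 1 and 8 with the muscle mean as the only covariate.

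Hepatocyte markers had a slope that passed for 0 of 45 members (0.464% of all probe sets). White adipocyte markers had one for 4 members, positive for Etfdh (0.77), Echs1 (0.63) and 1 probe set of Ucp3 (1.15) and negative for 1 of Bdh1 (-0.89), where 2.42% of all probe sets were positive and 2.04% negative. The 4 adipocyte slopes became 0 with that mean as the only covariate, without the arrays of extreme muscle content or with array weights, and between 0 and 8 with 1 array left out. The muscle mean itself did not order the male groups: it was between -1.76 and 1.19 in males at 10, against -0.44 to 1.41 in males at 0. In these males 2 of 51 skeletal muscle probe sets fell and 1 rose.

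**Figure D4:**
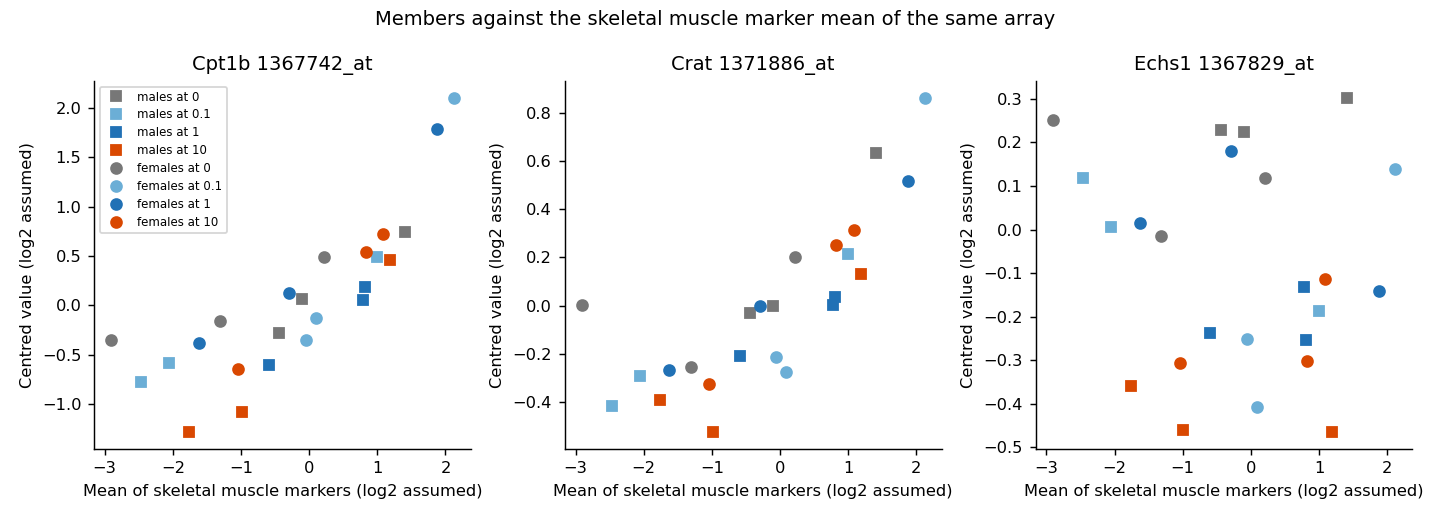
Centred values of Cpt1b, Crat and Echs1 against the skeletal muscle mean of the same array (both log2 assumed), squares for males and circles for females, colours by dose. Cpt1b and Crat are highest in the 3 arrays of highest muscle mean, while all 3 males at 10 are low in Echs1 although their muscle means are far apart.

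Other genes of the same metabolism were read from lists that hold no member. Over all probe sets 9.64% fell and 7.81% rose in males at 10 against 0, and 1.86% passed in females. In males at 10 against 0, 8 of 18 other citrate cycle probe sets fell and 0 rose. They include Dld, the shared E3 subunit of the ketoacid dehydrogenases (-0.78, adjusted p = 0.00120), and Pdha1, the pyruvate dehydrogenase E1α subunit (-0.98, adjusted p = 0.00157). Of 26 respiratory chain and ATP synthase probe sets 2 fell, Uqcrc2 of complex III (-0.66) and Atp5f1b of ATP synthase (-0.31), and 0 rose. In females at 10 against 0, 0 of either list passed.

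Of 24 probe sets of other peroxisomal oxidation genes 17 fell and 1 rose in males at 10. Abcd2, a transporter of very long acyl-CoAs, fell by 2.02 on the log2 scale in males (adjusted p = 9.97e-06) and by 1.11 in females at 10 (adjusted p = 0.0120), where 2 of the 24 fell. Of 24 probe sets for fatty acid uptake, release and activation 12 fell in males and 8 in females, with 0 higher in either. Examples are the lipases Mgll (-1.30 in males by 1370831_at) and Lipe (-1.42), of which Lipe is also an adipocyte marker here.

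Genes of fatty acid and triglyceride synthesis, the opposite direction of flow, fell too, in 11 of 27 probe sets in males and 4 in females, with 0 higher. Dgat1, of triglyceride synthesis, gave -1.18 in males and -0.66 in females. Agpat2 and Dgat2 of this list, and Lpl and Fabp4 of the uptake list, are also adipocyte markers here. Counts of these lists and of the adipocyte markers therefore share some probe sets. Among 26 probe sets of regulators, 7 fell and 2 rose in males, while 2 fell and 1 rose in females. Pparg, the adipocyte receptor of the PPAR family, is also an adipocyte marker here. It fell by 1.54 in males and by 1.00 in females on the log2 scale, in contrast to Ppara, which passed in neither. The rise in females was that of Pdk4, a kinase that turns off pyruvate dehydrogenase, named after its values were seen. Probe set 1369150_at of Pdk4 gave -0.80 in males at 10 (adjusted p = 0.0821) and 1.24 in females at 10 (adjusted p = 0.0456). The female call was lost when any of the 6 female arrays at 10 and 0 was left out (adjusted p between 0.0635 and 0.186). It was kept in 11 of the 24 fits with 1 array left out and in 4 of 15 other settings. The male difference minus the female one was -2.05 (adjusted p = 0.0298). The other Pdk4 probe set gave -0.82 in males and 1.31 in females (adjusted p = 0.256 and 0.212), and -2.13 between the sexes (adjusted p = 0.118).

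**Figure D5:**
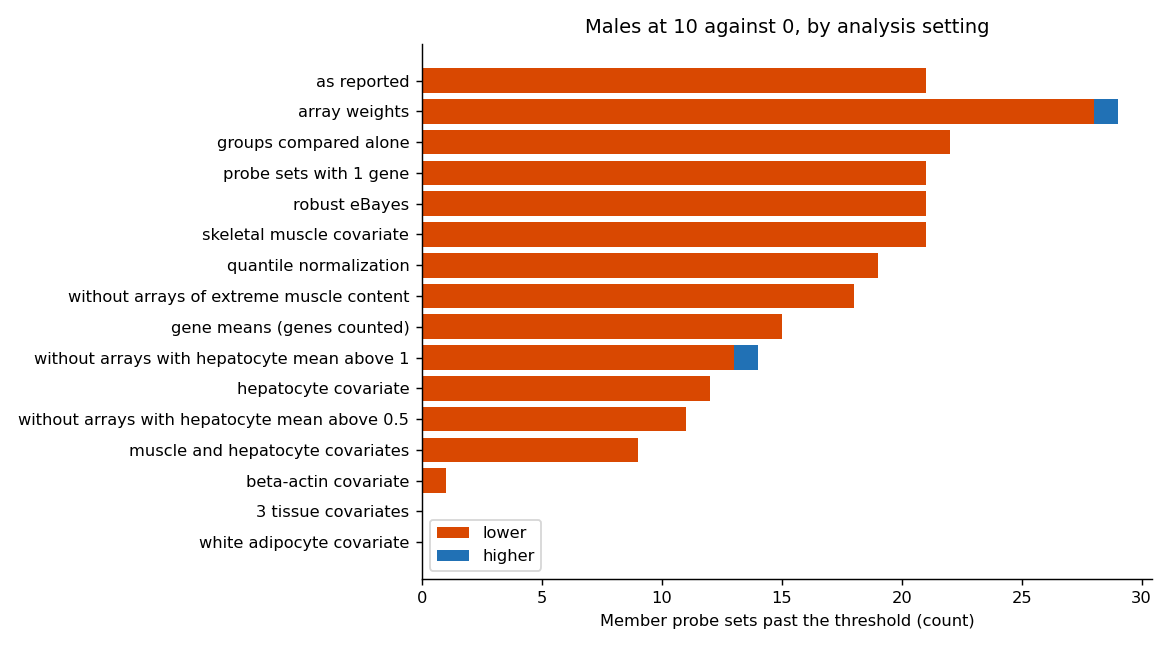
Number of member probe sets past the threshold in males at 10 against 0 under each analysis setting, lower in orange and higher in blue. The count is 21 as reported, lies between 9 and 29 under most settings, is 1 with the beta-actin covariate and is 0 with either fit that holds the white adipocyte mean.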

How the data were processed

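Total RNA of mammary gland pairs was measured on 24 biotin-labelled Affymetrix arrays, per the labels' protocols. The authors deposited 1 table of centred log values, taken here as log2 values, for 31099 probe sets. The submitters' processing notes list GCOS (Affymetrix software) but not what it did. How values were summarized, normalized and centred, and the log base, is not given in the sources used here. In 41.9% of probe sets over the male and 45.3% over the female arrays the values nearest to 0 on either side were opposite within 2e-06, so values appear centred within each sex, over a set of arrays that is not stated. Array medians lay between -0.0176 and 0.0132, and nothing was normalized further. Depth over background cannot be judged. Precision is limited by the number of arrays.

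After removal of 57 controls, 31042 probe sets were fitted with 8 group means in limma 3.58.1 (R 4.3.3) by lmFit and eBayes, with 16 degrees of freedom of the residuals and 2.95 of the prior. Benjamini-Hochberg adjustment ran over all of these probe sets, and the threshold was 0.05. The annotation gave 1 gene for 20826 probe sets, several for 436 and none for 9780, and 20758 of the first matched RefSeq by gene number. The fit was tested on simulated data.

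The members and all gene lists were chosen with earlier results of these data known. Values of each array are given for up to 10 members that passed at 10 (smallest adjusted p, 1 probe set per gene) and for Cpt1a, Cpt1b and Ppara. Other lists are named by their smallest adjusted p. Alternatives were marker means or the beta-actin difference as covariates, arrays left out, array weights, quantile normalization, robust variances, fewer probe sets, gene means, the groups alone and a replicate block. Marker means are over genes, member genes left out.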

Additional observations from a re-analysis of the deposited data

Results flagged for a closer look

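Acot2, by probe set 1388210_at, was picked out because its response at 10 differed between the sexes in a test of the difference itself. The male difference from 0 minus the female one was -0.72 (SE 0.158, adjusted p = 0.0302 in limma), with -0.53 in males and 0.19 in females. Its other probe sets, 1384115_at and 1391433_at, gave 0.36 and 0.14, so the probe sets disagree in sign. The call was lost when any of 8 of the 12 arrays at 10 and 0 was left out (adjusted p up to 0.101), with the beta-actin difference as a covariate (adjusted p = 0.364), with the white adipocyte mean (adjusted p = 0.199), with 3 tissue means (adjusted p = 0.0528), with a replicate block (adjusted p = 0.0562), with quantile normalization (adjusted p = 0.0824) and over gene means (-0.07, adjusted p = 0.769). Over these and the other alternatives the adjusted p lay between 0.00760 and 0.769. The probe set shared by Acot2 and Acot1 cannot be given to either gene. It was at -0.35, -0.10 and -0.27 in males at 10, against 0.16, 0.0033 and -0.04 in males at 0. In females it was at 0.08, -0.08 and -0.17 at 10, against -0.11, -0.22 and -0.41 at 0.

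Pdk4, by probe set 1369150_at, was picked out for the same reason. It was at -0.12, -0.64 and -0.87 in males at 10, against 0.60, 0.38 and -0.20 in males at 0, which overlap. It was at 0.92, 0.73 and 0.55 in females at 10, against -0.51, -0.20 and -0.82 in females at 0, which do not. The male difference from 0 minus the female one was -2.05 (SE 0.440, adjusted p = 0.0298 in limma). The call was lost when any of 6 of the 12 arrays at 10 and 0 was left out (adjusted p up to 0.0923), and over all alternatives the adjusted p lay between 0.00733 and 0.430, the highest with the beta-actin difference as a covariate. It kept its sign in each of them. Pdk4 was examined after its values were seen.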

How the results depend on the processing

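The count of 21 members passing in males at 10 against 0, all lower, was within 1.5 times of itself under 9 alternatives, between 14 without the arrays of high hepatocyte mean and 29 with array weights (1 of them higher in either case). The fit with 14 has 1 male at 0, assumed to vary like the other groups, and kept 12 of the 21 calls. It was 12 with the hepatocyte mean as a covariate, 9 with the muscle and hepatocyte means, 11 without arrays of a hepatocyte mean above 0.5, 1 with the beta-actin difference and 0 with the white adipocyte mean or all 3 tissue means. Of all probe sets, 10.9% passed with the hepatocyte mean, 8.29% with muscle and hepatocyte means and 2.38% with the beta-actin difference. With the white adipocyte mean 0% passed, and with all 3 tissue means 0.0226%. The member count with 1 array left out was 13 to 25. In the fit with 3 tissue means the sign turned, with no call, for Cpt2 (0.15), Acadvl (0.37), Acads (0.0233), Hadhb (0.20), Echs1 (0.13), Hadh (0.0472), Etfdh (0.35), Acat1 (0.18), Oxct1 (0.15) and Cs (0.31) in males at 10 and for Echs1 (0.0098) in males at 1. With the adipocyte mean alone it turned for Acadvl (0.15), Echs1 (0.12), Hadh (0.0271), Etfdh (0.0110) and Cs (0.0479) at 10 and for Echs1 (0.0016) at 1. The median SE was 0.29 and 0.34 in these fits, against 0.14. The cause of these changes was not tested. The settings with muscle and hepatocyte means, with the adipocyte mean alone and with the limit of 0.5 were chosen after seeing the data.

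Males at 1 against 0, with 1 call as reported, had 0 with the hepatocyte mean, the 3 tissue means, muscle with hepatocyte means, the adipocyte mean, quantile normalization or either removal of hepatocyte arrays, 2 with the muscle mean, the beta-actin difference, gene means or the groups alone, and 7 with array weights (0 to 8 with 1 array left out, the 8 without female replicate 4 at 0.1). Females at 0.1 had 8 with array weights (0 to 1 with 1 array left out). Replicates 4, 5 and 6 of that group had weights of 0.16, 3.48 and 0.45, so 1 array carries most of it. The share of all probe sets passing with array weights is not given here. Counts from that fit are therefore not read as a response of the members. Females at 10 had 2 with the muscle mean and 3 with array weights (0 to 2). Males at 10 against 1 had 1 with the muscle mean or the groups alone and 5 with array weights (0 to 1). Members passing the interaction at 10 numbered 2 with the muscle mean, muscle with hepatocyte means, the groups alone or either removal of hepatocyte arrays, 3 without extreme muscle arrays, 9 with array weights, and 0 with 3 tissue means, beta-actin, quantile normalization, gene means or the adipocyte mean (0 to 5).

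Muscle slopes numbered 8 with the muscle mean alone and 9 without the 4 arrays of extreme muscle content (9 to 21 with 1 array left out). Adipocyte slopes numbered 0 with that mean alone, without extreme muscle arrays or with array weights, and 1 without hepatocyte arrays (0 to 8). Both sexes share replicate numbers. Of 12 same-number correlations 5 were above 0.1 (-0.485 to 0.592), and 1 array of 24 correlated best with its own number. These values cannot decide whether the numbers pair arrays, because dose is shared within a number and tissue content differs between arrays. With the replicate number as a block the interaction passed for 0, 0 and 1 members at 0.1, 1 and 10. In that limma fit Acot2 had an adjusted p of 0.0562 and Pdk4 (1369150_at) one of 0.0514. The fit was checked on simulated differences of 1 and 2 log2 units, larger than any member fall, so how many falls of the members' size it misses was not measured. Signal over background is unknown.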
